A study of Arabidopsis thaliana with 9 samples.

Results

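PDC2 (AT5G54960) encodes a pyruvate decarboxylase and AT4G17260 encodes the lactate dehydrogenase of Arabidopsis thaliana. These 2 genes were followed in roots under low atmospheric pressure with and without added oxygen. Each was represented by its brightest probe set, and only 1 probe set named each gene alone (248138_at for PDC2 and 245324_at for AT4G17260). Both were among the 15818 probe sets that remained for testing out of 22810 on the array.

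Fermentation lets a cell regenerate NAD+ and keep glycolysis running when too little oxygen reaches the respiratory chain. Pyruvate decarboxylase removes carbon dioxide from pyruvate to give acetaldehyde, which alcohol dehydrogenase reduces to ethanol, whereas lactate dehydrogenase reduces pyruvate directly to lactate. In plant roots, which meet oxygen shortage in waterlogged soil, both branches are classical parts of the response to hypoxia, and acetaldehyde can also be oxidised to acetate and returned to metabolism as acetyl-CoA.

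Seedlings of the ecotype Wassilewskija, with no mutation or transgene named, were grown on vertical plates of gelled medium with sucrose under continuous light and were 5 d old when transferred for 24 h to an atmosphere of 1 of 3 kinds. Plants of the first group stayed at ambient pressure (97 kPa), those of the second were held at low pressure with its oxygen lowered to the same degree (50 kPa), and for the third the low pressure was combined with oxygen restored to 21 kPa (50 kPa/NormOx). Carbon dioxide was kept equal and nitrogen made up the rest. Each group had 3 ATH1 arrays, every array carrying the dissected roots of pooled plants from 1 chamber, so the arrays measured whole roots and not the cells in which either enzyme is made. In such bulk tissue, fewer cells of a type and less RNA per cell cannot be told apart.

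The values are MAS5 signals, linear probe set intensities scaled to a common mean on each array. Median signals lay between 196 and 217, and arrays correlated across probe sets at 0.944 to 0.965 within groups and at 0.935 to 0.960 between groups. One array, 50 kPa/NormOx replicate 2, stood apart from its group. It lay at -27.4 on the second principal component, on the side of the arrays at 50 kPa (-10.9 to -20.8) and past them. Replicates 1 and 3 of its own group were at 13.8 and 5.59. On the first component those 2 lay far from all other arrays, at 31.0 and 35.7, and replicate 2 was at 1.85. Within the group, replicate 2 correlated at 0.944 to 0.946, much as replicates 1 (0.944 to 0.947) and 3 (0.946 to 0.947) did. With arrays of other groups it reached 0.960, where replicates 1 and 3 reached 0.949 and 0.954. For the GAPDH control, whose probe sets at the 3' and 5' ends track the quality of the labelled RNA, the end-to-end ratio averaged 5.72 ± 0.577 (SD, n = 3) at 97 kPa, and 4.85 ± 0.394 and 5.03 ± 0.530 without and with added oxygen at 50 kPa. Of 10 root markers, EXPA7, an expansin of root hair cells, was the one named by a probe set, with mean signals of 298 ± 35.6, 307 ± 91.0 and 334 ± 132 in the same order of groups. Of 10 genes taken as shoot markers, STOMAGEN, LHCB4.1 and RCA were named. MAS5 signals alone do not show whether a transcript was present. The summed signal of these 3 ranged from 5690 to 7968 at 97 kPa. At 50 kPa the range was 7982 to 13180, and with added oxygen it was 4570 to 11732.

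PDC2 had nearly the same mean signal in all 3 atmospheres. At 97 kPa its signals were 269, 314 and 395 in replicates 1, 2 and 3. At 50 kPa they were 263, 396 and 304. At 50 kPa/NormOx they were 269.8, 290.3 and 405. Every group thus held 1 low, 1 middle and 1 high array, and the groups overlapped over nearly their whole range. Group means of PDC2 were 326 ± 64.0 (SD, n = 3) for 97 kPa, 321 ± 68.3 for 50 kPa and 322 ± 72.7 for 50 kPa/NormOx, and within each group the highest array exceeded the lowest 1.47-fold to 1.51-fold.

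For AT4G17260 the 50 kPa group had the highest mean. At 97 kPa its signals were 338, 283 and 273 in replicates 1, 2 and 3. At 50 kPa they were 578, 369.8 and 469.9. At 50 kPa/NormOx they were 272, 374 and 349.7. The 3 arrays at 50 kPa all lay above the 3 at 97 kPa, while 50 kPa replicate 2 lay just below 50 kPa/NormOx replicate 2, so that the low-pressure groups overlapped by 1 array. From low to high, the group means were 298 ± 34.8 (SD, n = 3) for 97 kPa, 332 ± 53.6 for 50 kPa/NormOx and 473 ± 104 for 50 kPa. The means of 97 kPa and 50 kPa/NormOx, neighbours in this order, differed by less than the SD of the latter.

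**Figure D1:**
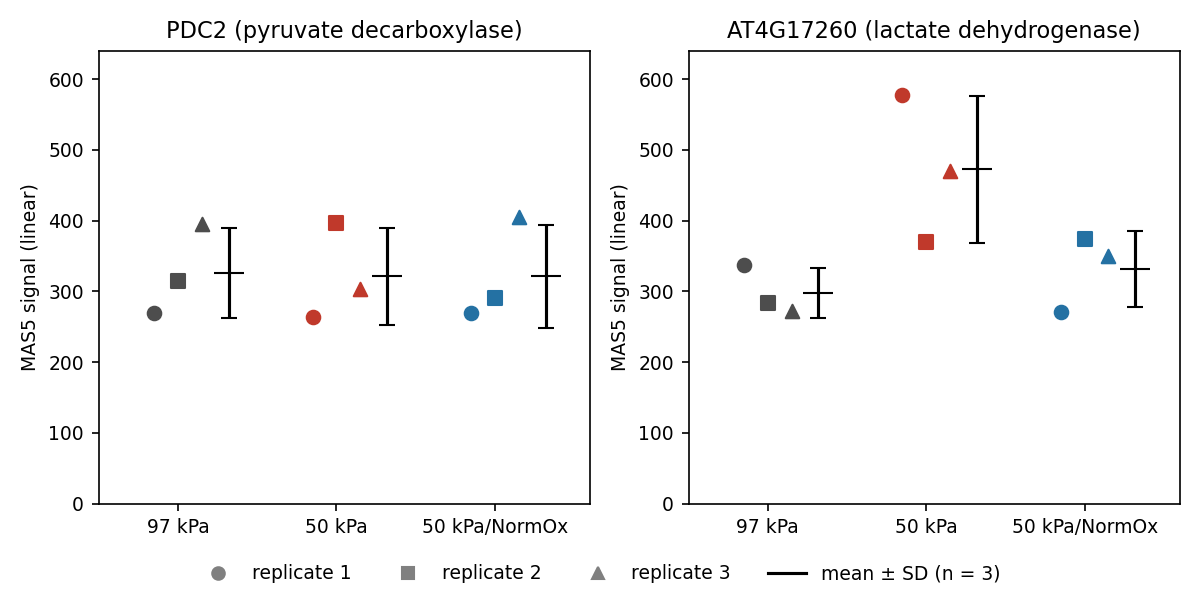
Linear MAS5 signal of PDC2 (left) and AT4G17260 (right) in each of the 9 arrays by atmosphere, with replicates as symbols and the group mean ± SD (n = 3) beside them. PDC2 spans 263 to 405 with the same spread in every group, while the AT4G17260 arrays at 50 kPa (369.8 to 578) lie above those at 97 kPa (273 to 338).

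The comparison of 50 kPa with 97 kPa asked how the genes differed when pressure and oxygen were lowered together. The log2 change of PDC2 was -0.026 ± 0.23 (SE), with a 95% confidence interval from -0.51 to 0.46 (limma, adjusted p = 0.988). The interval runs from a level 1.42-fold lower to one 1.37-fold higher, and changes within these bounds remained compatible with the 3 arrays per group. These bounds are not a limit of detection, since a larger change can also go uncalled. For AT4G17260 the log2 change was 0.65 ± 0.21 with an interval from 0.21 to 1.09, a level 1.57-fold higher at 50 kPa. The unadjusted limma p of AT4G17260 was 0.00656, and its adjusted p over all probe sets was 0.333, so it was not called at an adjusted p under 0.05. Calls were made for 0.0948% of the 15818 probe sets in this comparison, 13 of them higher at 50 kPa and 2 lower. Groups that did not overlap, as those of AT4G17260, occurred in 16.0% of all probe sets, and 1.96% of them had a smaller p than AT4G17260. The exact permutation test over the arrays gave p = 0.1 for AT4G17260 (two-sided, 3 against 3), the smallest value that this design can give.

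The comparison of 50 kPa with 50 kPa/NormOx held pressure equal and varied oxygen. AT4G17260 was 1.41-fold higher at 50 kPa, a log2 change of 0.50 ± 0.21 (SE) with an interval from 0.06 to 0.94 (limma, unadjusted p = 0.0282, adjusted p = 0.499). The log2 change of PDC2 was -0.00044 ± 0.23, with an interval from -0.48 to 0.48 (adjusted p = 0.999). Calls covered 0.0822% of the tested probe sets (12 higher, 1 lower), and 12.5% of them did not overlap between the groups. The exact permutation test gave p = 0.2 for AT4G17260 and p = 1 for PDC2. Without 50 kPa/NormOx replicate 2, the array that stood apart, the log2 change of AT4G17260 was 0.59 (adjusted p = 0.286) and that of PDC2 was -0.063. That array had the highest AT4G17260 signal of its group. Leaving out 50 kPa/NormOx replicate 1 instead, the lowest of the group, gave 0.36 for AT4G17260 (limma, adjusted p = 0.764).

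The comparison of 50 kPa/NormOx with 97 kPa held oxygen near ambient and varied pressure. Neither gene was called. AT4G17260 had a log2 change of 0.15 ± 0.21 (SE, interval -0.29 to 0.59, adjusted p = 0.823), and PDC2 one of -0.025 ± 0.23 (interval -0.51 to 0.46, adjusted p = 0.975). Calls covered 0.392% of the tested probe sets here (29 higher, 33 lower), and 18.5% of them did not overlap. Leaving out 50 kPa/NormOx replicate 2 gave a log2 change of 0.055 for AT4G17260, where the interval with all arrays already included 0. Without 50 kPa/NormOx replicate 1 it was 0.29.

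Contrasts that joined 2 groups used more arrays. Against the mean of both atmospheres with oxygen near ambient (97 kPa and 50 kPa/NormOx), AT4G17260 was 1.49-fold higher at 50 kPa, with a log2 change of 0.57 ± 0.18 (SE) and an interval from 0.19 to 0.95. Its unadjusted limma p was 0.00568 and its adjusted p 0.468, at rank 192 of 15818 by p, where 0.114% of all probe sets were called. The 50 kPa arrays stood clear of all 6 others in 2.91% of probe sets, and AT4G17260 was not among these because of the overlap with 50 kPa/NormOx replicate 2. In the exact permutation test over 84 splits of the arrays its p was 0.0238, or 0.357 after adjustment over the 15 such tests made on the genes and their ratio, where 0.0119 is the smallest p possible. For PDC2 the log2 change in this contrast was -0.013 ± 0.20 (interval -0.43 to 0.40). When both low-pressure groups were set against 97 kPa, the log2 change was 0.40 ± 0.18 for AT4G17260 (interval 0.02 to 0.78, adjusted p = 0.392) and -0.026 ± 0.20 for PDC2 (interval -0.44 to 0.39, adjusted p = 0.977), with 0.234% of all probe sets called. These contrasts share arrays with the pairwise ones and are not separate evidence.

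**Figure D2:**
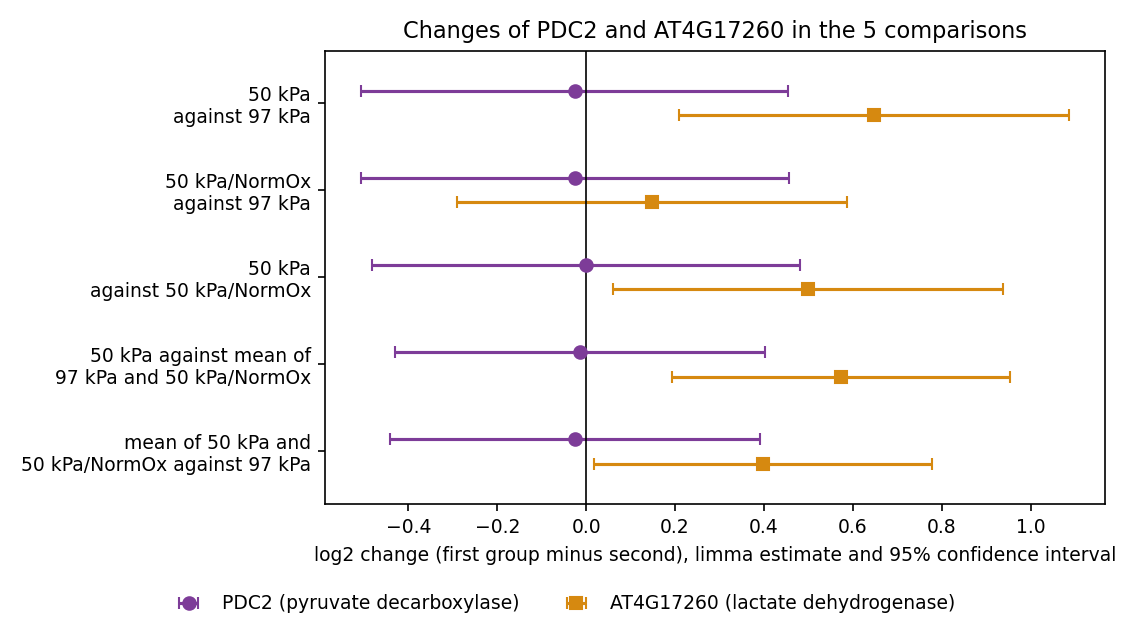
Log2 change of PDC2 (circles) and AT4G17260 (squares) in the 5 comparisons, as limma estimates with 95% confidence intervals. All 5 PDC2 intervals include 0, with estimates between -0.026 and -0.00044, and the AT4G17260 interval includes 0 only for 50 kPa/NormOx against 97 kPa, although no adjusted p was under 0.05.

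Whether the genes moved unequally was asked with the log2 ratio of AT4G17260 to PDC2 in each array, in which the scale of an array cancels. The mean ratio was higher by 0.67 on the log2 scale at 50 kPa than at 97 kPa (exact permutation test, p = 0.2), and by 0.50 than at 50 kPa/NormOx (p = 0.3). Between 50 kPa/NormOx and 97 kPa it differed by 0.17 (exact permutation p = 0.6). Against both other groups together the ratio at 50 kPa was higher by 0.59 (exact permutation p = 0.107). Leaving out 50 kPa replicate 1 lowered the difference from 97 kPa to 0.38 and that from 50 kPa/NormOx to 0.21, and leaving out 50 kPa replicate 2 raised them to 1.00 and 0.83. At 50 kPa the replicates spread from -0.10 to 1.13, a range that overlapped with both other groups, because replicate 2 was the lowest of its group for AT4G17260 and the highest for PDC2. The exact permutation test of 3 against 3 arrays cannot give a p under 0.1, so the pairwise tests could not decide the question. Against both other groups together the smallest p possible was 0.0119. An unequal change of the genes was not established, and neither was an equal one.

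The variance of each gene was also divided into parts between and within groups, as a description with no test between the genes. Between-group differences made up 64.5% of the variance of AT4G17260 over the 9 arrays and 0.245% of that of PDC2, beside a median of 27.8% over all probe sets. The SD of log2 signal within groups was 0.30 for PDC2 and 0.25 for AT4G17260, on either side of the median of 0.26 over all probe sets. PDC2 thus varied among arrays of a group about as much as other probe sets did. In a test over all 3 groups at once the limma p was 0.0166 for AT4G17260 (adjusted p = 0.299) and 0.992 for PDC2.

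Leaving out each array in turn kept the AT4G17260 change above 0 in every comparison and never brought it to a call. At 50 kPa against 97 kPa its log2 change ranged from 0.49 without 50 kPa replicate 1, the array with its highest signal, to 0.81 without 50 kPa replicate 2. Against 50 kPa/NormOx it ranged from 0.34 to 0.66 when the same arrays were left out. The log2 change of PDC2 moved between -0.19 and 0.12 at 50 kPa against 97 kPa and so had no settled sign.

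**Figure D3:**
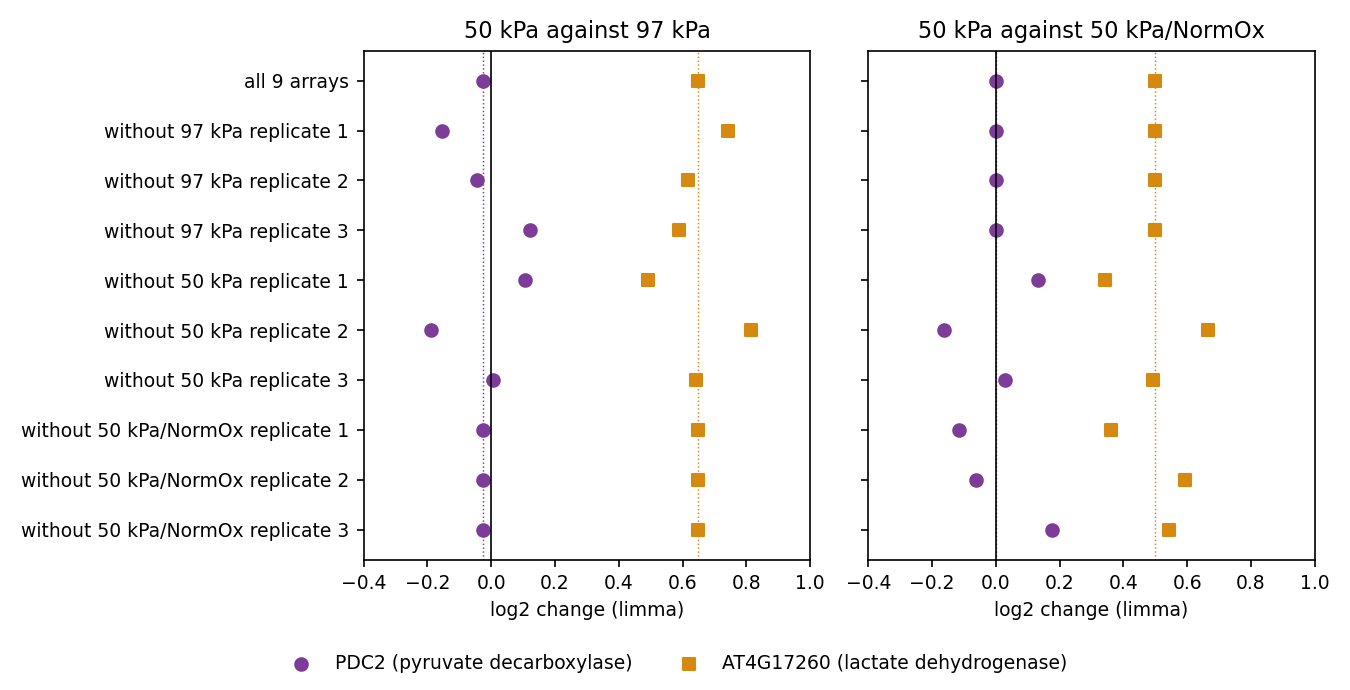
Log2 change (limma) of PDC2 (circles) and AT4G17260 (squares) with all 9 arrays and with each array left out, for 50 kPa against 97 kPa (left) and against 50 kPa/NormOx (right). Dotted lines mark the values with all arrays. AT4G17260 stays between 0.34 and 0.81, whereas PDC2 lies on both sides of 0.

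The shoot markers moved in part with AT4G17260. Their summed signals were 9339, 13180 and 7982 in 50 kPa replicates 1, 2 and 3 and 11732 in 50 kPa/NormOx replicate 2, against at most 7968 in the other arrays. LHCB4.1, an antenna protein of photosystem II, averaged 4178 ± 823 (SD, n = 3) at 97 kPa, 5754 ± 1345 at 50 kPa, and 3629 ± 1489 with added oxygen. STOMAGEN, a peptide that promotes stomata, averaged 309 ± 59.2, 744 ± 220.0 and 595 ± 329 in the same order, and RCA, the activase of Rubisco, 2511 ± 318, 3668 ± 1241 and 3355 ± 2006. All 3 means were thus highest at 50 kPa, and with added oxygen those of STOMAGEN and RCA lay above 97 kPa and that of LHCB4.1 below. The array with the highest marker sum, 50 kPa replicate 2, had the lowest AT4G17260 signal of its group, while 50 kPa/NormOx replicate 2, with the highest sum of its own group, had the highest. Between 50 kPa and 97 kPa limma called 0 of the 3 markers (STOMAGEN alone had an unadjusted p under 0.05), and their part in the AT4G17260 difference was not tested. The GAPDH end-to-end ratio ran from 5.39 to 6.39 at 97 kPa and from 4.40 to 5.11 at 50 kPa, so it too separated these groups, with 4.51 to 5.57 where oxygen was added. Its part in the AT4G17260 difference was not tested either.

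The neighbouring steps of pyruvate use were described with 98 listed genes, the 2 fermentation genes included, of which 27 were named by 1 probe set, 24 were tested and 71 were not analysed by name. Among the latter were 4 of the 5 genes of ethanol fermentation, so PDC2 is the only gene of that branch with values here. It cannot speak for the branch as a whole. The study itself, by its own rule and normalization, counted PDC1 among typical hypoxia genes that responded to 50 kPa in roots of both ages it studied. PDC1 is not analysed by name here. For its older seedlings the study also reported high induction of PDC2 by lowered oxygen at ambient pressure, in roots but not in shoots. That atmosphere held less oxygen than the low-pressure one followed here, and its arrays are not among those used. The study described the oxygen level of low pressure without added oxygen as a mild hypoxic stress. The gene roles below are textbook roles by which the lists were drawn up. Apart from a core hypoxia list described further on, limma called 0 of the 24 tested genes in each of the 5 comparisons. At an unadjusted p under 0.05 there were 3 at 50 kPa against 97 kPa (AT4G17260, ALDH2C4 and ACS) and 5 at 50 kPa against 50 kPa/NormOx (AT4G17260, AT5G58330, GAPC2, AT1G20950 and ALDH11A3). Over all tested probe sets 9.38% and 9.06% reached that p in these comparisons.

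Of the 4 genes listed under oxidation of acetaldehyde and activation of acetate, 2 were tested. At 50 kPa against 97 kPa their log2 changes had opposite signs without passing the test. ACS, the acetyl-CoA synthetase that turns acetate into acetyl-CoA, had signals of 1396, 1339 and 1606 at 97 kPa, 1129, 1195 and 1078 at 50 kPa and 1128, 982 and 1279 at 50 kPa/NormOx. Both low-pressure groups lay wholly below 97 kPa, with log2 changes of -0.35 ± 0.14 (SE, adjusted p = 0.460) and -0.36 ± 0.14 (adjusted p = 0.294). In these comparisons 16.0% and 18.5% of all probe sets did not overlap, in either direction. ALDH2C4 is a cytosolic aldehyde dehydrogenase, and the arrays do not show which aldehyde it oxidises. Its signals were 6198, 5588 and 5873 at 97 kPa and 6949, 6942 and 7270.2 at 50 kPa. At 50 kPa/NormOx its signals were 6383, 6604 and 5756, below all those at 50 kPa and overlapping with those at 97 kPa. Between 50 kPa and 50 kPa/NormOx 12.5% of all probe sets did not overlap. The log2 change of ALDH2C4 was 0.26 ± 0.10 at 50 kPa against 97 kPa (adjusted p = 0.452) and 0.18 ± 0.10 against 50 kPa/NormOx (adjusted p = 0.642).

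The pyruvate dehydrogenase complex takes pyruvate into acetyl-CoA instead of fermentation. Its list had 16 entries, of which 6 were tested and none called. At 50 kPa against 97 kPa, 2 lay above 0 and 4 below, with a median log2 change of -0.055 beside -0.042 over all probe sets. AT1G54220, an E2 subunit of the mitochondrial complex, had a log2 change of -0.35 ± 0.18 (SE, adjusted p = 0.584), from 510 ± 41.9 (SD, n = 3) at 97 kPa to 402 ± 55.0 at 50 kPa. AT2G34590, an E1 beta subunit of the plastid complex, went the other way, from 1990 ± 125 to 2294 ± 92.4 and on to 2566 ± 162 at 50 kPa/NormOx. Its log2 change at 50 kPa/NormOx against 97 kPa was 0.37 ± 0.12 (adjusted p = 0.197). For the mitochondrial subunits LTA3 and MAB1 the log2 changes at 50 kPa were -0.18 ± 0.15 and -0.10 ± 0.11, with adjusted p of 0.751 and 0.814.

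Malate dehydrogenase also re-oxidises NADH, and 2 of the 9 listed genes were tested. AT5G58330, the chloroplast enzyme that uses NADP, had a log2 change of 0.25 ± 0.24 (SE) at 50 kPa against 97 kPa and 0.58 ± 0.24 against 50 kPa/NormOx (adjusted p = 0.499). For MDH (AT3G47520), a plastid enzyme, these were 0.051 ± 0.15 and 0.18 ± 0.15. Of 6 sucrose synthases and 4 alanine and aspartate aminotransferases, none was analysed by name.

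Glycolysis, which supplies the pyruvate, had 53 listed genes, of which 15 were named by 1 probe set, 12 tested and 3 below the floor of 66.7. At 50 kPa against 97 kPa, 6 lay above 0 and 6 below, with a median of 0.036. GAPC2, a cytosolic glyceraldehyde 3-phosphate dehydrogenase, had signals of 10303, 13368 and 10911 at 50 kPa against 9109, 9824 and 8528 at 50 kPa/NormOx. These groups did not overlap, as was so for 12.5% of all probe sets. The log2 change of GAPC2 was 0.33 ± 0.11 (SE, adjusted p = 0.440), and against 97 kPa it was 0.17 ± 0.11. AT5G42740, the cytosolic phosphoglucose isomerase, had a log2 change of 0.29 ± 0.20 against 97 kPa and AT1G56190, a phosphoglycerate kinase, one of 0.13 ± 0.12. AT1G20950, an alpha subunit of the pyrophosphate-dependent phosphofructokinase, was lower at 50 kPa than at 50 kPa/NormOx without overlap, with a log2 change of -0.33 ± 0.14 (adjusted p = 0.520). ALDH11A3, a non-phosphorylating glyceraldehyde 3-phosphate dehydrogenase named here after its values had been seen, had a log2 change of 0.61 ± 0.24 in the same comparison (adjusted p = 0.486), with 2626 in 50 kPa replicate 2 and 1406 and 1558 in the other arrays at 50 kPa.

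**Figure D4:**
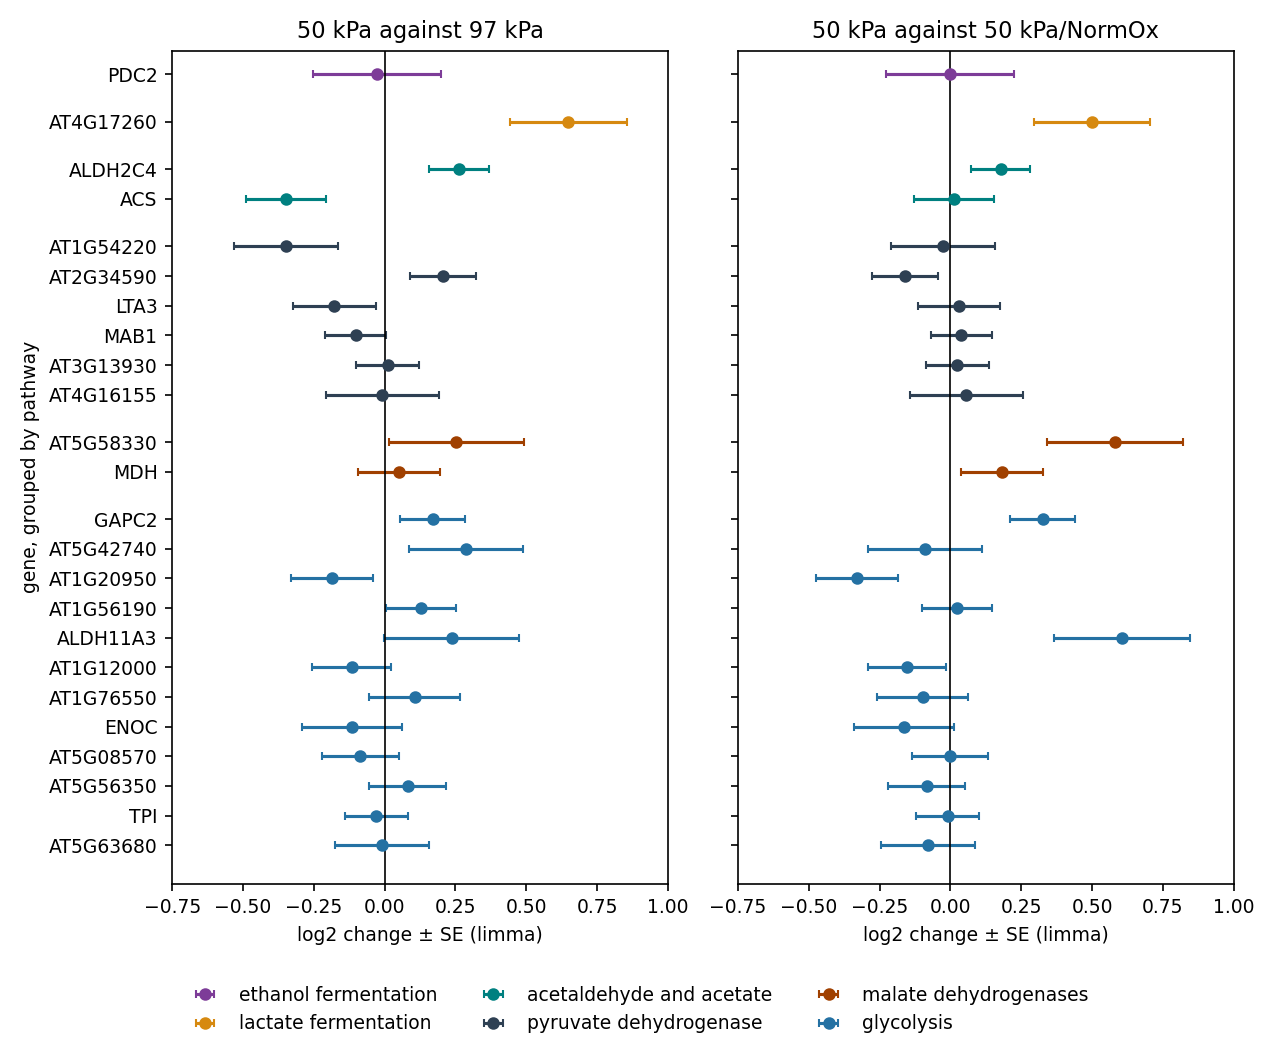
Log2 change ± SE (limma) of the 24 tested genes of fermentation and pyruvate use, coloured by pathway, for 50 kPa against 97 kPa (left) and against 50 kPa/NormOx (right). AT4G17260 has the highest log2 change of these genes on the left (0.65). On the right it lies at 0.50, below ALDH11A3 (0.61) and AT5G58330 (0.58). PDC2 lies near 0 in both panels (-0.026 and -0.00044), and none of the 24 was called.

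PDC2 is also an entry of a list of core hypoxia response genes, drawn up from genes induced by oxygen shortage across cell types. The list had 47 entries, of which 24 were not analysed by name and 20 besides PDC2 were tested. At 50 kPa against 97 kPa these 20 had a median log2 change of 0.82 beside -0.042 over all probe sets, and 6 were called higher and 0 lower (11 and 0 at an unadjusted limma p under 0.05), where 0.0948% of all tested probe sets were called and 9.38% had such a p. The 6 were AT4G33560, AT3G03270, AT4G27450, AT4G10270, AT1G33055 and AT5G66985. Of the 20, 19 had a higher change than PDC2 and 12 a higher change than AT4G17260. Against 50 kPa/NormOx the median was 0.96, all 20 lay above PDC2 and 12 above AT4G17260. Here 4 were called higher, AT4G33560, AT3G03270, AT4G27450 and AT1G33055, beside 0.0822% of all tested probe sets. These genes are named after their values had been seen. At 50 kPa/NormOx against 97 kPa the median was -0.033, with 0 called by limma, 2 at an unadjusted p under 0.05 (12.7% of all tested probe sets), and 9 of the 20 above PDC2. PDC2 thus lay at the lower end of the core hypoxia list in both comparisons in which the groups differed in oxygen, as a description of these arrays.

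The probe sets whose pattern over the 9 arrays was most like each gene were looked up among the 8666 tested ones that name a single gene other than the gene itself. For PDC2 the 5 highest Pearson correlations of log2 signal were those of AT5G38830 (0.952, Spearman 0.82), AT1G74410 (0.944, 0.83), AT3G13930 (0.929, 0.92), AT5G05310 (0.900, 0.88) and AT3G52860 (0.892, 0.73). AT3G13930 is an E2 subunit of the mitochondrial pyruvate dehydrogenase complex and had a log2 change of 0.011 ± 0.11 (SE) at 50 kPa against 97 kPa. AT5G38830 had means of 2011 ± 272 (SD, n = 3) for 97 kPa, 2051 ± 365 for 50 kPa and 1998 ± 309 for 50 kPa/NormOx. Its spread lay within groups as that of PDC2 did, which follows from its selection by correlation with PDC2.

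For AT4G17260 the highest correlations were those of AT1G65820 (0.918, Spearman 0.85), AT2G21180 (0.908, 0.95), TET8 (0.903, 0.83), AT3G50350 (0.890, 0.95) and AT4G31130 (0.876, 0.80). All 5 were highest at 50 kPa, as AT4G17260 was, a likeness that their selection by correlation favours. AT3G50350 had means of 321 ± 52.0 (SD, n = 3) for 97 kPa, 538 ± 58.5 for 50 kPa and 364 ± 147 for 50 kPa/NormOx, and TET8, a tetraspanin, had means of 1243 ± 77.3, 1642 ± 376 and 1321 ± 197. These correlations are over 9 arrays in 3 groups and were the highest of the 8666 looked up, so they are given as a description only.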

How the data were processed

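Labelled cRNA from 9 root samples was hybridised to ATH1 arrays. The deposited intensity values are linear MAS5 signals that the authors made in Affymetrix Expression Console, with each array scaled to a common target. The version of that software is not given here, as no source used names it, and the number of arrays limits the precision. The study itself tested values of another normalization, RMA, not used here. After 64 control and 148 organelle probe sets were left out, as were the 30% with the lowest mean, 15818 of 22598 remained. Gene names came from GEO's annotation of the array (13513 name 1 gene, 503 several, 8794 are not listed). Signals were taken as log2 and all 9 arrays fitted by group in limma 3.58.1 (R 4.3.3) with an intensity trend, two-sided tests and Benjamini-Hochberg adjustment over all tested probe sets. The fit was tested on simulated data, as a check of the code and not of the changes reported here. The arrays come from separate chambers.

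Genes were named as the 4 smallest p of a pathway list at 50 kPa against 97 kPa, any called gene of the pathway lists (there was none) and the 5 highest correlations with each fermentation gene. The members and lists were chosen with earlier results of these data known. Alternatives covered the filter, scaling, offset, variance model, array weights, arrays in the fit, call rule, organelle probe sets, replicate number as a block and each array left out. Many other genes of these pathways and of the hypoxia response are not analysed by name here.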

Additional observations from a re-analysis of the deposited data

How the results depend on the processing

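Neither gene was called in any of 206 values under the alternatives, and the AT4G17260 change stayed above 0 in all of them. Its log2 change was 0.49 to 0.81 at 50 kPa against 97 kPa (adjusted p 0.231 to 0.692), 0.34 to 0.66 against 50 kPa/NormOx and 0.055 to 0.29 for 50 kPa/NormOx against 97 kPa. Against the mean of the other groups it was 0.42 to 0.74 (adjusted p 0.180 to 0.686), and 0.32 to 0.49 for both low-pressure groups against 97 kPa. The log2 change of PDC2, near 0 throughout, changed sign. In the order 50 kPa against 97 kPa, 50 kPa/NormOx against 97 kPa, 50 kPa against 50 kPa/NormOx, 50 kPa against both other groups and both low-pressure groups against 97 kPa, it was 0.025, 0.019, 0.0058, 0.015 and 0.022 with quantile normalization and 0.056, 0.034, 0.021, 0.039 and 0.045 with median centring. With array weights it was 0.028, 0.038, 0.0092 and 0.033 in all but 50 kPa against 50 kPa/NormOx, where the sign held. Leaving out single arrays gave -0.19 to 0.12, -0.20 to 0.12, -0.16 to 0.18, -0.18 to 0.12 and -0.16 to 0.12. The difference in the log2 ratio of AT4G17260 to PDC2 was 0.38 to 1.00 for 50 kPa against 97 kPa and 0.21 to 0.83 for 50 kPa against 50 kPa/NormOx when single arrays were left out. Between 50 kPa/NormOx and 97 kPa it was -0.034 to 0.40. For 50 kPa against both other groups it was 0.30 to 0.91, and without 50 kPa replicate 2, where it was 0.91, the exact permutation p was 0.0357. That p is unadjusted and the smallest that the remaining arrays can give, and the array left out had the lowest ratio of its group.

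The number of probe sets called, 15, 62, 13, 18 and 37 in the same order, depended on the settings. It was 6, 0, 4, 9 and 0 without the variance trend and 101, 142, 70, 52 and 83 under the methods' rule of an unadjusted p under 0.01 and at least 2-fold. The first count was 27 with median centring, 26 with an offset of 32, 35 with array weights and 62 with 6 arrays alone. The second was 121 with array weights and 104 with 6 arrays alone. The last was 60 with 50% of probe sets filtered, 63 with the offset and 139 with array weights. Median centring moved the share of calls that were higher from 46.8% to 60.4% in the second and from 48.6% to 75% in the last. Leaving out single arrays gave 8 to 53, 2 to 104, 8 to 97, 7 to 96 and 4 to 69. The highest of these all came without 50 kPa/NormOx replicate 2, and the lowest without 97 kPa replicate 2 or 50 kPa replicate 1 or 3, 50 kPa/NormOx replicate 3, 50 kPa replicate 3 or 50 kPa/NormOx replicate 3, 50 kPa replicate 3 and 97 kPa replicate 3. The cause of these shifts was not tested. Each listed gene had 1 probe set, so taking the median over probe sets changed nothing.

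The labels of 1 array at 50 kPa give 2 different replicate numbers, of which that in its title was used here, so the pairing of that group is in doubt. By the numbers used, no pairing of the arrays was seen: deviations of arrays with the same number correlated at -0.051 to 0.11, with 1 of 9 pairs over 0.1. The other number of that array was not tried, so pairing under it was not tested. With the number as a block, 30, 28 and 58 probe sets were called in the first, the third and the last comparison, and AT4G17260 at 50 kPa against 97 kPa had an adjusted p of 0.353. With 3 arrays per group, the interval of PDC2 at 50 kPa against 97 kPa reaches from 1.42-fold lower to 1.37-fold higher, and that against 50 kPa/NormOx from 1.40-fold lower to 1.40-fold higher. Detection calls were not part of the values used here.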
